A study of Mus musculus with 4 samples.

Results

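Gastric-type cells were compared with the other adenoma cells of the same mouse small intestinal adenomas. Of 7996 called cells, 3245 were adenoma cells, and 1448 of those were gastric-type. Cells were chosen by measured UMIs, that is, counts of unique transcript molecules. A called cell had at least 10000 UMIs, at least 200 genes and at most 20% mitochondrial UMIs. An adenoma cell had UMIs of at least 2 of the genes Prox1, Notum and Nkd1, with a sum of at least 3. Gastric-type cells were selected on at least 10 UMIs of Gkn3 and Muc6 together, and other cells (805) on at most 1 UMI. The remaining 992 adenoma cells lay between these limits and entered no test. Single-cell libraries had been made from ApcMin mice (ApcMin/+;Lef1 +/+) and VApcMinL mice (ApcMin/+;Lef1 fl/fl with Villin-Cre), all C57BL/6, aged 11 weeks and labelled male. Each group had 2 libraries of several pooled, dissociated and unsorted tumors, with replicate 1 made with kit version 2 and replicate 2 with kit version 3. All mice carried the Min allele of Apc. Villin-Cre deletes floxed genes in the intestinal epithelium, so stromal and immune cells keep Lef1.

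The stomach lining is renewed by glands in which surface pit cells secrete gastrokines and the mucin Muc5ac, while mucous neck and pyloric gland cells make Muc6 and the trefoil peptide Tff2. The normal small intestine makes Muc2 instead and keeps its identity through Cdx transcription factors. Loss of Apc leaves the Wnt pathway constantly on, and Prox1, Notum and Nkd1 are Wnt targets raised in Apc-mutant cells. Gkn3 encodes a gastrokine of stomach mucous cells.

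Libraries held from 44660305 to 128247396 UMIs, and they are named by their labels although some measurements raise doubts about these. Lef1 measured 8.87, 27.6, 33.3 and 21.9 CPM (UMIs per 1000000 UMIs of the summed cells) in adenoma cells, first of the kit 2 libraries (ApcMin, then VApcMinL) and then of the kit 3 libraries (ApcMin, then VApcMinL). It was thus higher in the VApcMinL than in the ApcMin library of the kit 2 pair. Counts per gene do not show whether a transcript is intact, and the cause was not tested. In the same order, used for all lists of 4 values below, Xist measured 0.0853, 1127, 0.0668 and 321 CPM and the Y-linked gene Eif2s3y 41.9, 0, 40.95 and 38.03 CPM. All 487 adenoma cells of VApcMinL replicate 1 had Xist UMIs, and none had UMIs of the 4 Y-linked genes Ddx3y, Eif2s3y, Kdm5d and Uty. VApcMinL replicate 2 held 497 adenoma cells with Xist alone and 1130 with Y-linked UMIs alone. These values go against the label male for VApcMinL replicate 1 and for some cells of VApcMinL replicate 2. In the kit 2 pair genotype and sex thus cannot be told apart. With kit 3, ApcMin replicate 2 also held 317 adenoma cells with Y-linked UMIs alone, but the genotypes were not compared within a sex. State comparisons were made within libraries, but in VApcMinL replicate 2 cells with Xist alone were 218 of 777 gastric-type and 114 of 580 other cells. Cells with Y-linked UMIs alone were 410 and 364 of these, so sex was not balanced between the states there. Its part in the state differences was not tested.

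The rule genes are given as a description, since they chose the cells. Gkn3 measured 1725, 3818, 1811 and 1271 CPM in gastric-type cells and 18.9, 22.4, 5.20 and 9.82 CPM in other cells. Muc6 measured 191, 443, 306 and 260.1 CPM in gastric-type cells and 4.99, 20.7, 3.72 and 5.08 CPM in other cells. Most gastric-type cells carried both genes: 80.6, 90.7, 70.9 and 86.1% had at least 1 UMI of each. The median gastric-type cell held 30.0, 61.5, 53.0 and 31.0 UMIs of the pair. At the edges of the rule, 371 adenoma cells had exactly 1 UMI and 266 had 2, while 66 had 9 and 61 had 10, so no gap separated the states. In barcodes with immune markers and no Epcam or Krt8, which should lack both genes, the pair measured 53.7, 108, 16.6 and 26.3 CPM. Their median depth was 3234, 2788, 4385 and 3908.5 UMIs, far below that of adenoma cells. At this depth and level 10 UMIs could hardly be reached, so 0 of 339 such barcodes doing so tells little. At least 1 UMI was found in 17.2, 27.8, 11.1 and 11.4% of them. Other cells measured 23.8, 42.99, 8.90 and 14.9 CPM of the pair. Their selection on at most 1 UMI caps this level, so it does not show whether they held background only. Barcodes of at most 100 UMIs, which mostly hold free RNA, measured 319, 804, 222 and 299 CPM. The median depth was 22581.5, 22577.5, 41530.00 and 28631 UMIs per gastric-type cell and 22340.00, 14511, 31853 and 26326.5 UMIs per other cell. Gastric-type cells were deeper in each library, and VApcMinL replicate 1 had only 37 other cells.

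**Figure D1:**
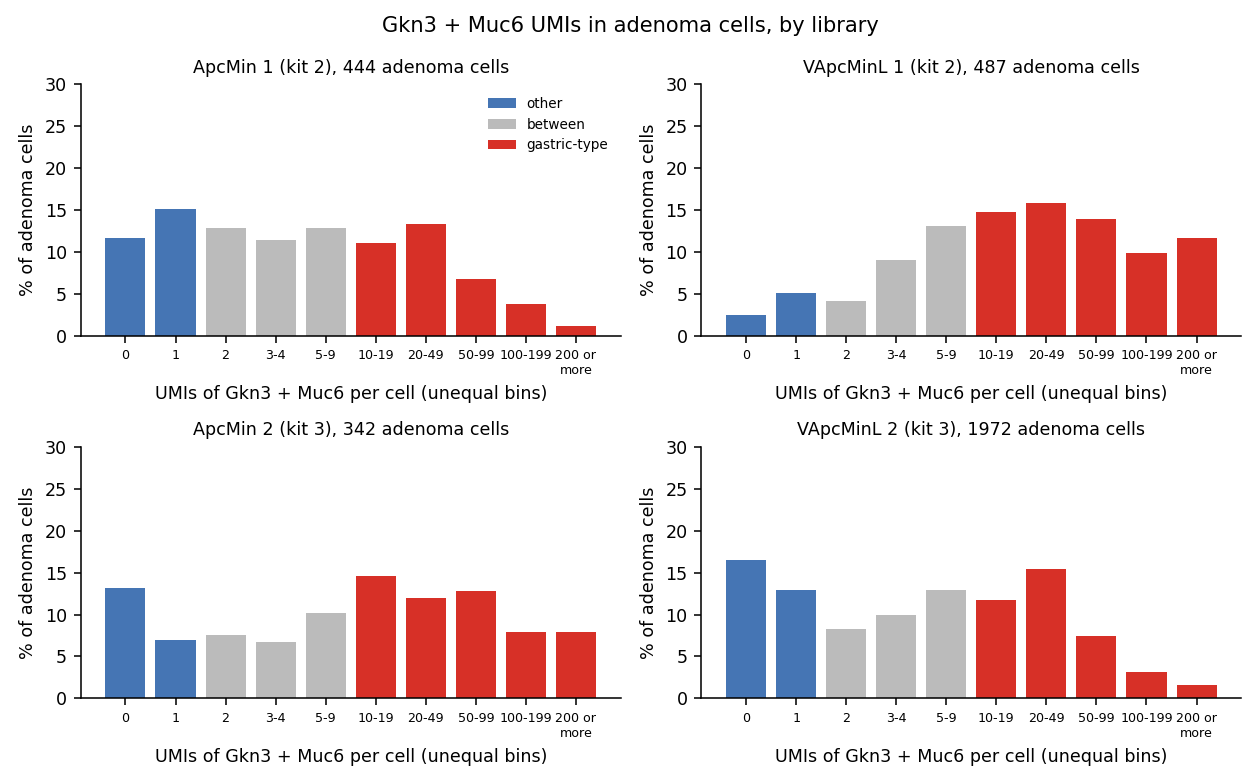
Percent of adenoma cells (y axis) by their UMIs of Gkn3 and Muc6 together (x axis, unequal bins) in each of the 4 libraries; blue bars are other cells, grey bars cells between the limits and red bars gastric-type cells. The counts run continuously from 0 to over 200 UMIs, and VApcMinL replicate 1 has the fewest cells at 0 or 1.

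When the rule used Gkn3 alone, Muc6 no longer chose the cells. Both genes were chosen with earlier results of these data known, so the comparisons below describe the pair and are no independent evidence. Muc6 then measured 159, 442, 295 and 259 CPM in cells with at least 10 Gkn3 UMIs and 61.7, 180.1, 118 and 40.2 CPM in cells with none. Muc6 was higher in the Gkn3-selected cells of each library, although the ranges overlapped between libraries. The log2 fold change was 1.67 (SE 0.23), with an adjusted p of 0.0219 by edgeR (quasi-likelihood fit, library as a block), where 0.554% of all genes tested were called higher. Conversely, with cells selected on at least 5 Muc6 UMIs against none, Gkn3 measured 1860.1, 4695, 1992 and 1505 CPM against 223, 709, 328 and 134 CPM. Its log2 fold change was 2.92 (SE 0.13, edgeR adjusted p = 1.9e-05), where 8.95% of all genes tested were called higher. Each gene of the rule was thus higher in cells selected on the other, and the Gkn3 ranges did not overlap.

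Stomach genes outside the rule rose with it. All other genes were tested on UMIs summed per library and state, 8 sums in all, with the library as a block and calls at an adjusted p under 0.05. Of 11755 genes tested, 221 were higher (1.88%) and 140 lower (1.19%) in gastric-type cells. With at least 2-fold change and the same direction in all 4 libraries as added conditions, 124 (1.05%) were higher and 68 (0.578%) lower. The median log2 fold change over all tested genes was -0.0073.

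The largest rise was that of Aqp5 (chromosome 15, 99590782 to 99594829, plus strand), a water channel of pyloric gland and salivary cells. Aqp5 measured 81.02, 216, 231 and 62.2 CPM in gastric-type and 0.713, 12.1, 7.81 and 2.22 CPM in other cells. The groups did not overlap, and the fold was 29.3 (log2 4.87, SE 0.21, edgeR adjusted p = 8.77e-05). Tff2 (chromosome 17, 31141049 to 31144282, minus strand), the trefoil peptide of mucous neck cells, measured 98.3, 733, 1077 and 91.7 CPM against 12.8, 18.97, 4.09 and 8.94 CPM. VApcMinL replicate 1 and ApcMin replicate 2 stood far above the other pair of libraries in gastric-type cells, while all other cells stayed low. Its log2 fold change was 4.51 (SE 0.68, edgeR adjusted p = 0.0135). Tff1, the trefoil peptide of pit cells, measured 109.6, 333, 80.5 and 27.7 CPM against 14.3, 13.8, 0.372 and 7.07 CPM (log2 3.14, SE 0.47, edgeR adjusted p = 0.0125). Its gastric-type sums differed widely among libraries, yet each lay above all the other-cell sums. Pgc, the pepsinogen precursor of chief and neck cells, measured 20.02, 36.8, 45.7 and 69.2 CPM against 7.13, 3.45, 3.35 and 5.49 CPM (log2 3.16, SE 0.33, edgeR adjusted p = 0.00264).

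Gkn1 and Gkn2, the gastrokines of pit cells, were higher in all 4 libraries without overlap. Gkn1 measured 753, 896, 974 and 805 CPM in gastric-type and 161, 152, 59.1 and 138 CPM in other cells (log2 2.79, SE 0.26, edgeR adjusted p = 0.00175). Barcodes of at most 100 UMIs held 209, 271, 104 and 177 CPM of Gkn1, more than the other cells of every library and less than the gastric-type cells. Gkn2 measured 69.97, 81.4, 70.1 and 55.9 CPM against 13.2, 1.72, 5.58 and 9.46 CPM (log2 2.82, SE 0.25, edgeR adjusted p = 0.00131). Agr2, an endoplasmic reticulum enzyme needed for mucin folding, measured 1135, 2301, 1683 and 1332 CPM against 269, 153, 90.7 and 279 CPM (log2 3.04, SE 0.38, edgeR adjusted p = 0.00573). The Agr2 groups did not overlap. The remaining large rises were Faim2, an inhibitor of Fas-induced apoptosis (log2 3.20), Trf, the iron carrier transferrin (2.78), and Nptx2, a secreted pentraxin (2.63). Trf rose within every library, but its level ranged from 12.1 to 167 CPM in gastric-type and from 1.78 to 22.4 CPM in other cells, so the groups overlapped between libraries.

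**Figure D2:**
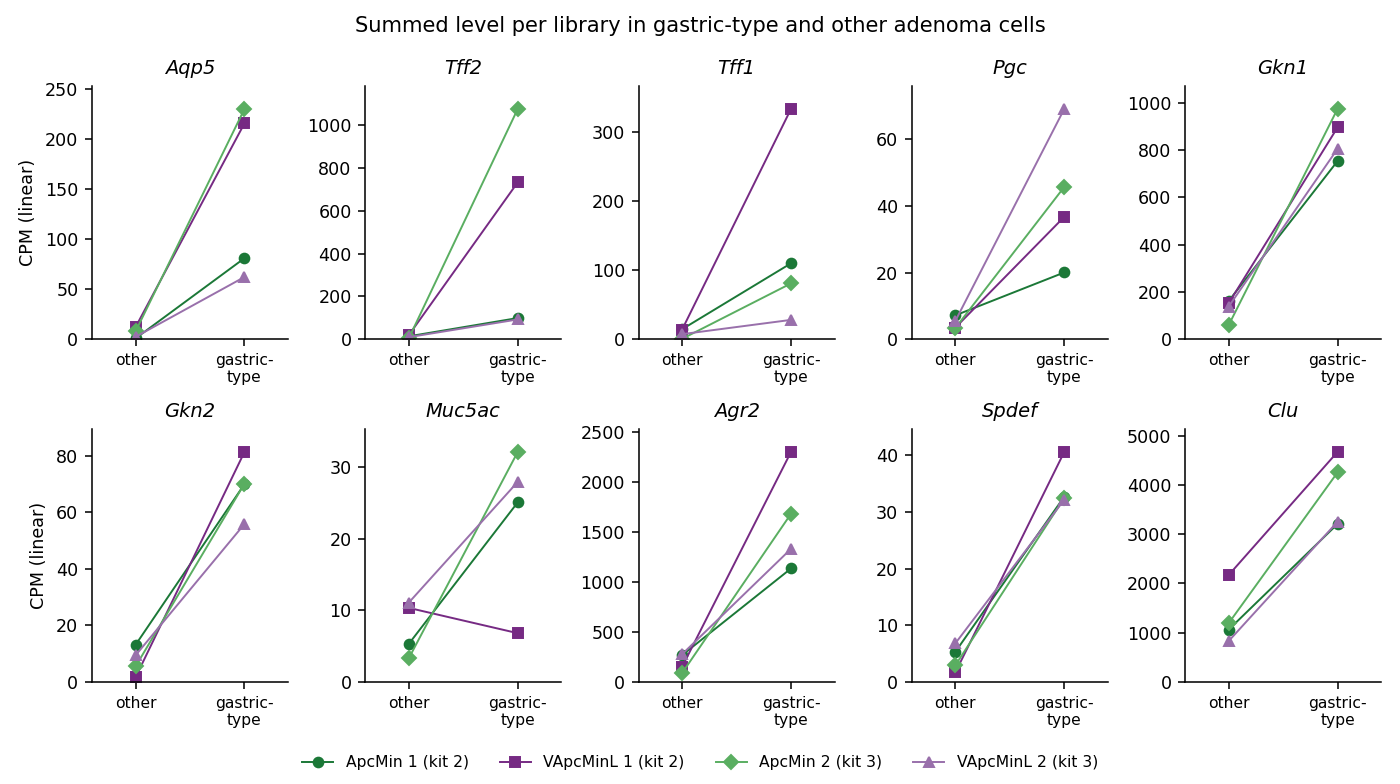
Summed level in CPM (y axis, linear) of 10 genes in other and gastric-type adenoma cells (x axis), 1 line for each of the 4 libraries. Aqp5, Tff2, Tff1, Pgc, Gkn1, Gkn2, Agr2, Spdef and Clu rise in all 4 libraries, whereas Muc5ac is lower in the gastric-type cells of VApcMinL replicate 1.

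Several of these genes are neighbors in the genome (GRCm38, GENCODE vM21). Gkn1, Gkn2 and Gkn3 lie within 1 cluster on chromosome 6, with 3.76 kb between Gkn2 and Gkn3 and 22.4 kb between Gkn1 and Gkn2, on both strands. Tff2 and Tff1 are 17.1 kb apart on chromosome 17, and Faim2 lies 62.6 kb from Aqp5 on chromosome 15. The bases just upstream of Gkn3, Gkn2, Gkn1 and Muc6 are shown because these genes moved together and mark the state. Each sequence is the 250 bases before the RefSeq start (GRCm38.p6), written 5′ to 3′ on the gene's strand at chr6:87388936-87389185 (minus), chr6:87373115-87373364 (plus), chr6:87350916-87351165 (minus) and chr7:141655394-141655643 (minus). Capitals mark GATAA or its reverse complement, the core motif of GATA factors.
Gkn3: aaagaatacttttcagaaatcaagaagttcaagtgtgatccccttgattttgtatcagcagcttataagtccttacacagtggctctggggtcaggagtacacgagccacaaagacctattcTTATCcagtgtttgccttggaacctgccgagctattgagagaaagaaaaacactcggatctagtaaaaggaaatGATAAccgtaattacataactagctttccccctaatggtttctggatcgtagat
Gkn2: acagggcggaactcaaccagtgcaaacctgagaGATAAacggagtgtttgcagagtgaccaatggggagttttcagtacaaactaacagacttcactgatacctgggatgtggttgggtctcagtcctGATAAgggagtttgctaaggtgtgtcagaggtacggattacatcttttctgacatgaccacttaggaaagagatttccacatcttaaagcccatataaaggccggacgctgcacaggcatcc
Gkn1: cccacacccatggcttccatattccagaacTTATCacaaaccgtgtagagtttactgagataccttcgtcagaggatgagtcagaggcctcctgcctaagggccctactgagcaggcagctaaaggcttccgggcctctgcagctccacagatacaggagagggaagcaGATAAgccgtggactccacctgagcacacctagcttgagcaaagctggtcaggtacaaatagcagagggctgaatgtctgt
Muc6: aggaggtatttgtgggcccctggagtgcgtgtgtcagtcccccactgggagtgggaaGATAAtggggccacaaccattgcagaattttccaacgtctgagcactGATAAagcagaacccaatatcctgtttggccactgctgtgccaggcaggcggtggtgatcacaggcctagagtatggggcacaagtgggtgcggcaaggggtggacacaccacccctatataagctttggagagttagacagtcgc
Each of the 4 windows held 2 matches, on either strand and without overlap. Over all 32851 RefSeq promoter windows of this length, 22.6% held at least 1 match and 4.28% at least 2. The motif was chosen after the sequences had been seen. Among 154 genes called higher that had a promoter entry, 16.9% held a match, against 17.4% of 9179 tested genes. The motifs CTTTGA (TCF/LEF), TGTTTAC (forkhead), TTTATGG (CDX) and ACAATG (SOX), searched on both strands, had 0 matches in the 4 windows. They occurred in 13.8%, 3.17%, 2.43% and 10.7% of all windows. Gata4, Gata5 and Gata6 had log2 fold changes of 0.41, 0.41 and 0.31, and none was called (edgeR adjusted p = 0.269, 0.0965 and 0.206).

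The stomach program was followed through lists of known genes. Of 12 stomach pit genes, 8 passed the filter on low counts and 8 were called higher, with a median log2 fold change of 2.50. For comparison with each list here and below, 1.88% of all tested genes were called higher and 1.19% lower. A gene seen mostly in gastric-type cells passes the filter through them, so list counts describe and do not test. Besides Tff1, Gkn1 and Gkn2 these included Cldn18, a stomach tight junction protein (2.78), and Vsig1, a stomach adhesion molecule (2.22). Under the filter were Psca (148 against 67 UMIs in gastric-type against other cells, of 49089801 against 23193002 UMIs in all), Capn8 (22 against 9), Capn9 (28 against 39) and Sult1c2 (51 against 13). Muc5ac, the pit mucin, was called (log2 1.72, SE 0.35, edgeR adjusted p = 0.0424) but measured 25.1, 6.82, 32.1 and 27.9 CPM against 5.35, 10.3, 3.35 and 11.1 CPM. It was lower in the gastric-type cells of VApcMinL replicate 1, and with cells selected on Gkn3 alone its log2 fold change was -0.017. Of 12 neck and gland genes, 11 passed the filter and 7 were called higher (median 1.50), among them Aqp5, Tff2, Pgc and the antibacterial lactoferrin Ltf (1.61). A4gnt, the enzyme that caps Muc6 sugars, fell under the filter with 30 against 2 UMIs. The summed pit list ranged from 1489 to 2055 CPM in gastric-type and from 255 to 604 CPM in other cells. The summed neck and gland list ranged from 563 to 1848 CPM in gastric-type and from 157 to 933 CPM in other cells, with overlap between libraries.

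Genes of acid- and enzyme-secreting stomach cells mostly fell under the filter. Of 14 parietal, chief and endocrine genes, 3 passed the filter and 1 was called. This gene, Atp4a, a subunit of the proton pump, measured 26.01, 6.93, 7.51 and 53.4 CPM against 6.41, 6.90, 1.12 and 22.8 CPM (log2 1.43, SE 0.24, edgeR adjusted p = 0.019). Lipf, the lipase of stomach chief cells, was not called (log2 -0.88, SE 0.47, edgeR adjusted p = 0.444). It measured 29.9, 3.70, 59.2 and 8.96 CPM in gastric-type and 57.02, 12.1, 29.4 and 38.7 CPM in other cells, lower in 3 of 4 libraries. The Atp4a partner subunit Atp4b had UMIs only in VApcMinL replicate 2, 18 in gastric-type and 12 in other cells, and with Gkn3 alone as the rule Atp4a was -0.50 on the log2 scale. Gif, the intrinsic factor that carries cobalamin, had 34 UMIs in gastric-type and 0 in other cells, at least 5.35-fold more against a floor of 3 counts over the group, and did not pass the filter.

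Transcription factors of the stomach and intestine were read from both lists. Of 10 foregut factors, 8 passed the filter and 2 were called higher, against 1.88% of all genes. These were Foxa3 (log2 0.73, SE 0.13, edgeR adjusted p = 0.0265) and Onecut2 (0.57, SE 0.092, edgeR adjusted p = 0.0164). Sox2, the main stomach and esophagus factor, had 1 UMI in gastric-type and 8 in other cells, and Pdx1, a factor of antrum and duodenum, was not called (log2 0.82, SE 0.37, edgeR adjusted p = 0.35). Of 14 intestinal factors tested, 0 were called higher and 1 lower, the bZIP factor Maf (log2 -1.38, SE 0.23, edgeR adjusted p = 0.0185), at 7.14, 6.13, 27.6 and 19.5 CPM against 29.6, 34.5, 54.3 and 36.7 CPM. Cdx2, the master factor of intestinal identity, measured 49.5, 25.8, 21.02 and 45.4 CPM against 58.1, 24.1, 27.9 and 68.6 CPM, and Cdx1 24.4, 8.90, 10.1 and 21.2 CPM against 39.6, 3.45, 9.66 and 38.9 CPM. Their log2 fold changes of -0.41 (SE 0.13, edgeR adjusted p = 0.162) and -0.57 (SE 0.22, edgeR adjusted p = 0.266) did not pass the test, and the groups overlapped. With cells selected on Muc6 alone both were called lower, at -0.72 and -1.41 (edgeR adjusted p = 0.00441 and 0.00165). That setting called 935 of 11565 tested genes lower, against 140 of 11755 in the main comparison. The epithelial genes Epcam and Vil1 were detected in all 8 sums at log2 differences of 0.40 and -0.10, neither called.

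Secretory genes were read from several lists. Spdef, a transcription factor of goblet and mucous cell maturation, measured 32.7, 40.6, 32.5 and 32.1 CPM against 5.35, 1.72, 2.97 and 6.84 CPM. The groups did not overlap (log2 2.58, SE 0.23, edgeR adjusted p = 0.00128). Of 20 endoplasmic reticulum load genes tested, 2 were called higher, the secretory activators Creb3l4 (log2 2.08) and Creb3l1 (0.93). The list median was 0.29, and 20 of 20 members were above 0, against 5710 of all 11755 tested genes. Other lists also leaned to 1 side: 14 of 14 enterocyte and 10 of 10 Paneth genes lay below 0, and 35 of 41 S phase genes above 0. Of 13 mucin glycosylation genes tested, 1 was called, the transferase Galnt7 (0.60, list median 0.43). Among 10 goblet genes Agr2 alone was called, and the goblet products Muc2, Tff3 and Spink4 had log2 values of 0.21, -0.33 and -0.94 that did not pass the test. Hes1, the Notch target that opposes secretory fate, was lower in all 4 libraries (log2 -0.60, SE 0.12, edgeR adjusted p = 0.0432), at 181, 139.6, 115 and 108 CPM against 243, 317, 147 and 139 CPM. The Hes1 call held in 9 of 20 alternatives.

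**Figure D3:**
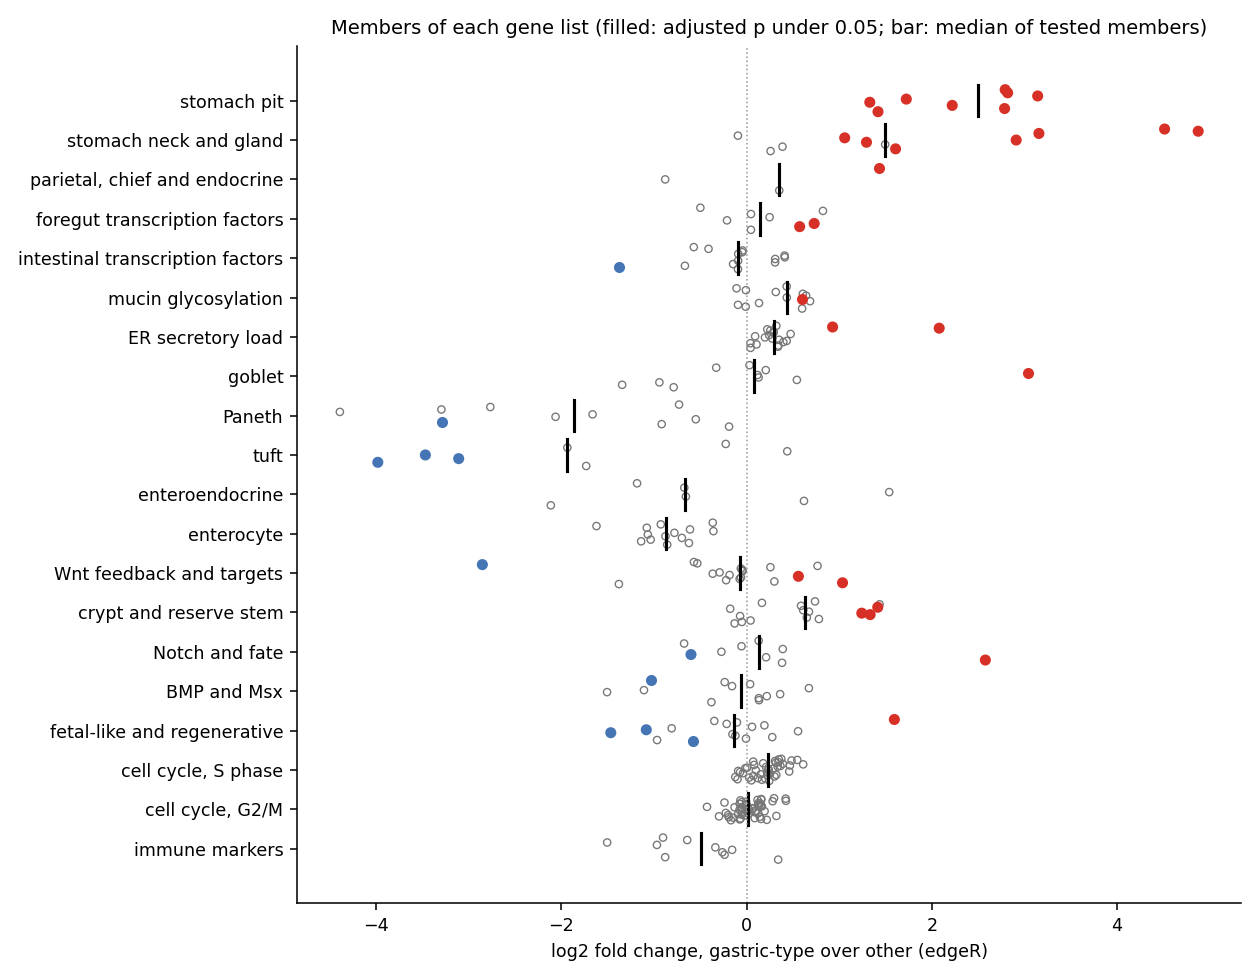
Log2 fold change of gastric-type over other adenoma cells (x axis) for the tested members of 20 gene lists (y axis), each circle a gene; red and blue circles are called higher and lower, open circles are not called, and black bars are list medians. The stomach pit and neck and gland lists lie to the right, and the called tuft and Paneth genes lie to the left.

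Stem cell and Wnt genes did not all move one way. Of 16 crypt and reserve stem genes tested, 3 were called higher: the ion cotransporter Slc12a2 (log2 1.42), the crypt factor Sox9 (1.33) and the potassium channel subunit Kcne3 (1.24). Over all tested genes 1.88% were called higher and 1.19% lower. Sox9 measured 122, 238, 282 and 169 CPM against 39.9, 112, 108 and 65.8 CPM, without overlap (SE 0.092, edgeR adjusted p = 0.00049). Lgr5, the crypt base stem cell receptor, measured 20.3, 66.3, 95.2 and 40.2 CPM against 8.20, 68.98, 52.03 and 20.9 CPM and missed the threshold (log2 0.74, SE 0.17, edgeR adjusted p = 0.0565), although DESeq2 called it (adjusted p = 0.0156). Olfm4, another stem cell gene, measured 1.38, 0.231, 1.20 and 20.9 CPM against 0.356, 1.72, 1.86 and 5.26 CPM (log2 1.44, edgeR adjusted p = 0.225). Of 18 Wnt feedback and target genes tested, 2 were called higher, Ephb3 (1.03) and Cd44 (0.56), and 1 lower, the secreted Wnt modulator Dkk2 (-2.85). Dkk2 was lower in 3 of 4 libraries, at 4.14, 7.97, 5.99 and 1.56 CPM against 2.49, 103, 63.9 and 9.41 CPM. Axin2 (log2 -0.57, edgeR adjusted p = 0.197), Myc (-0.061, adjusted p = 0.97) and Lef1 (-0.043, adjusted p = 0.997) were not called. The gate genes Prox1, Notum and Nkd1, which chose the cells, showed fitted differences of 0.13, -0.30 and -0.036 between the states.

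Proliferation genes did not pass the test. None of 41 S phase or 52 G2/M genes was called, with list medians of 0.23 and 0.017. Mki67 measured 78.03, 62.1, 181 and 184 CPM against 85.9, 39.7, 124 and 200.04 CPM (log2 0.13, SE 0.15, edgeR adjusted p = 0.827). Ribosomal protein genes, 81 tested, had 0 calls and a median of -0.023. Of 16 fetal-like and regenerative genes tested, Clu, the marker of revival stem cells, was called higher at 3206, 4669, 4253 and 3252 CPM against 1064, 2171, 1195 and 832 CPM (log2 1.59, SE 0.12, edgeR adjusted p = 0.000677). Spp1, Il1rn and Cldn4 of the same list were called lower, at log2 values of -1.08, -1.47 and -0.57. Cldn2, the leaky claudin of crypts, was called higher (1.49, edgeR adjusted p = 0.0491), opposite to Cldn4. Of 15 stress genes tested, 1 was called, the mRNA decay factor Zfp36, at 188, 99.4, 114 and 91.5 CPM against 243, 169, 151 and 105 CPM (log2 -0.45, edgeR adjusted p = 0.043). This call held in 6 of 20 alternatives.

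The largest falls included Krt14, S100g, Dsc3 and Slc7a11. S100g, the vitamin D-induced calcium-binding protein calbindin-D9k, measured 2565, 982, 3433 and 1444 CPM in gastric-type and 14850.5, 5239, 10936 and 9043 CPM in other cells. The 4 other-cell sums all exceeded the 4 gastric-type sums, 5.09-fold on the fitted scale (log2 -2.35, SE 0.15, edgeR adjusted p = 0.000402). Krt14, a keratin of basal cells in stratified epithelia, measured 4.14, 6.70, 3.48 and 4.83 CPM against 44.2, 51.7, 105 and 57.5 CPM (log2 -3.80, SE 0.28, edgeR adjusted p = 0.000766). Gastric-type cells thus held less Krt14 than barcodes of at most 100 UMIs, at 9.05, 17.4, 15.3 and 14.3 CPM. Dsc3, a desmosomal cadherin of stratified epithelia, was lower in all 4 libraries (-2.16, SE 0.30, edgeR adjusted p = 0.00897), although its level ranged from 1.38 to 13.4 CPM in gastric-type and from 5.35 to 43.1 CPM in other cells. Slc7a11, the cystine importer for glutathione synthesis, measured 4.14, 4.74, 8.49 and 4.50 CPM against 14.97, 37.9, 34.6 and 14.3 CPM (log2 -2.09, edgeR adjusted p = 0.00228). Fscn1, an actin-bundling protein, fell 3.88-fold, C1qtnf12, a secreted adipokine, 3.83-fold, and the kinase gene Camk1d 3.56-fold. Cxcl2, a neutrophil chemokine, had a log2 fold change of -1.71 (edgeR adjusted p = 0.0433), a call that held in 8 of 20 alternatives.

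Msx1, a homeobox target of BMP signaling, was lower in the gastric-type cells of every library. It measured 130.04, 18.5, 30.8 and 174 CPM against 187, 67.3, 80.7 and 276 CPM, 2.05-fold lower (log2 -1.04, SE 0.19, edgeR adjusted p = 0.0254). The ranges of the groups overlapped because libraries differed in level in both states. It was the only called gene among 12 BMP and Msx genes tested. Lyz1, the lysozyme of Paneth cells, measured 258, 143, 292 and 601 CPM against 115, 435, 1608 and 555 CPM and was not called (log2 -0.73, SE 0.53, edgeR adjusted p = 0.616), higher in 2 libraries and lower in 2. In ApcMin replicate 2, where other cells measured 1608 CPM, the Paneth list summed to 29501 CPM in these cells and 1 of 69 carried Paneth markers. There Lyz1 was found in 29.6% of gastric-type and 21.7% of other cells after thinning, the opposite order.

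**Figure D4:**
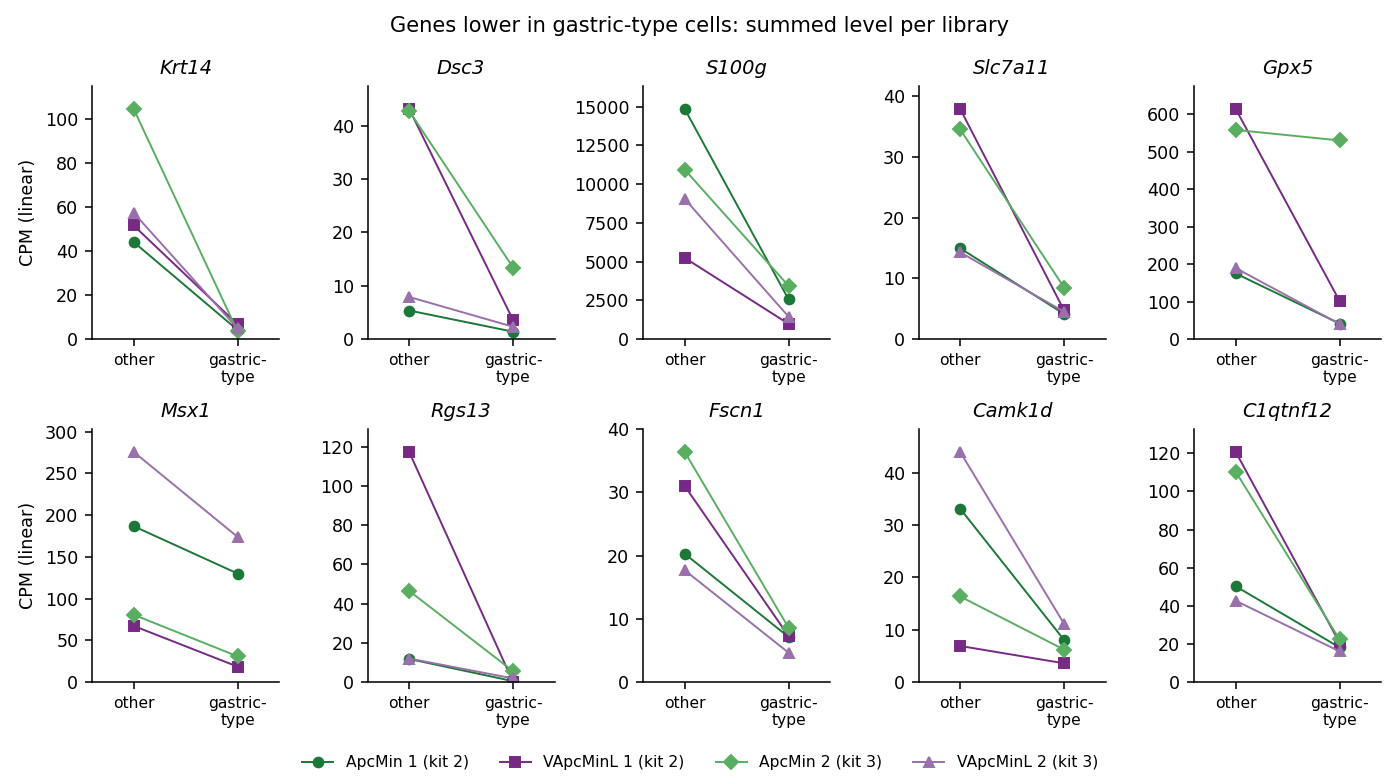
Summed level in CPM (y axis, linear) of 10 genes called lower, in other and gastric-type adenoma cells (x axis), 1 line for each of the 4 libraries. All 10 fall within every library, and Rgs13 is highest in the other cells of VApcMinL replicate 1, where 1 of 37 carried tuft markers.

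Genes that led an earlier cluster of gastric-type cells in these data split in direction; that list was read from these libraries and is no independent evidence. Of 8 such genes, Gkn1, Wfdc18, Clu and Atp4a were called higher and Gpx5 lower. Wfdc18, a secreted protease inhibitor-like protein, measured 2119, 7023, 2058 and 949.5 CPM against 216, 1728, 527 and 116 CPM (log2 2.55). Gpx5, a secreted glutathione peroxidase of the epididymis, measured 41.4, 102, 529.8 and 40.1 CPM against 175, 614, 558 and 189 CPM (log2 -1.79, SE 0.36, edgeR adjusted p = 0.0392). In ApcMin replicate 2 its level was close in both states. The neuropeptide precursor Pnoc (-2.11) and the lipid-binding Bpifb5 (-1.26) were not called. The pancreatic lipase-like Pnliprp1 was at -0.0065.

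Other cell types could enter either state through the gate. Cells with at least 3 UMIs of immune markers (Jchain and Lyz2 left out) were the most frequent, 149 of 1448 gastric-type (10.3%) and 42 of 805 other cells (5.22%). Within libraries their shares were 18.8, 25.5, 9.52 and 2.45% against 13.4, 18.9, 7.25 and 2.41%. Cells with at least 3 UMIs of tuft markers numbered 18 of 1448 gastric-type and 17 of 805 other cells. By library these were 0, 0, 6 and 12 gastric-type and 1, 1, 2 and 13 other cells. In VApcMinL replicate 1, 1 of 37 other cells thus carried tuft markers. Cells with at least 1% of their UMIs from Paneth markers numbered 6 in gastric-type and 6 in other cells, and those with at least 1% from enterocyte markers 27 and 18. Among 7 tuft genes tested, Rgs13 and Alox5ap were called lower, with log2 values of -3.98 and -3.11. Rgs13, a regulator of G protein signaling found in tuft cells, measured 0.46, 0.116, 5.55 and 1.86 CPM against 11.8, 117, 46.5 and 11.98 CPM. With marker-carrying cells removed from both states, neither gene passed the low-count filter, and Ang4, the 1 called gene of 10 Paneth genes tested (-3.29), went to 1.27 (edgeR adjusted p = 0.273). Rgs13, Alox5ap and Ang4 were themselves among the markers that removed cells, so their outcome was partly set by the removal. In that comparison 410 genes were called, 298 of them shared with the 361 calls above, and Aqp5 (4.71), Krt14 (-3.65) and Msx1 (-1.07) kept their calls. Enterocyte genes had a median of -0.87 with 0 of 14 called, and 0 of 6 enteroendocrine and 0 of 4 MHC class II genes tested were called. Summed immune markers ranged from 23.8 to 556 CPM in gastric-type and from 48.02 to 565 CPM in other cells, with 0 of 10 tested genes called. Fibroblast, endothelial and red cell markers, 2, 4 and 3 of them tested, also had 0 calls. Their summed levels ranged from 5.65 to 16.1 CPM in gastric-type and from 6.60 to 30.8 CPM in other cells, from 47.96 to 127 CPM in gastric-type and from 110.4 to 154 CPM in other cells, and from 0.545 to 574 CPM in gastric-type and from 1.12 to 599 CPM in other cells, respectively. The part of these cells and markers in other called genes was not tested.

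For most called genes, the cells between the limits had intermediate mean levels. These genes were called from the outer states and the same rule placed the cells between, so the counts describe and do not test. A share over all tested genes was not computed. Of the 221 genes called higher, 212 had a mean level between those of the outer states in cells with 2 to 9 UMIs of Gkn3 and Muc6, and 127 of the 140 genes called lower did. Gkn1 measured 295, 229.96, 340.5 and 294 CPM in the cells between, and S100g 8198, 6781, 6853 and 4979 CPM. In VApcMinL replicate 1 the S100g level of these cells exceeded that of its 37 other cells, and Krt14, at 94.9 CPM, did so too. Tff2 instead measured 8.75, 16.5, 10.7 and 7.11 CPM there, lower than in the other cells of 3 libraries and higher in ApcMin replicate 2.

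**Figure D5:**
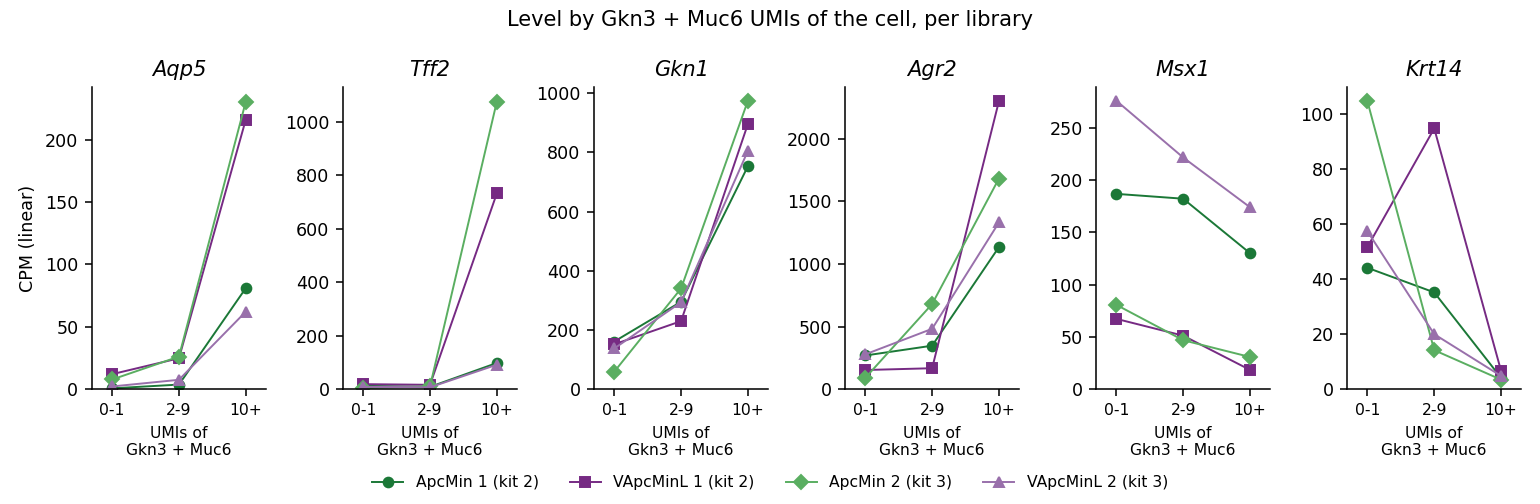
Summed level in CPM (y axis, linear) of 6 genes by the UMIs of Gkn3 and Muc6 in the cell (x axis: 0 to 1, 2 to 9, and 10 or more), 1 line for each of the 4 libraries. Gkn1 climbs in steps, Tff2 is far higher at 10 or more UMIs than below, and Msx1 declines in every library.

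The share of adenoma cells that were gastric-type was 36.04% in ApcMin replicate 1 (exact 95% binomial interval 31.6% to 40.7%) and 66.1% in VApcMinL replicate 1 (61.7% to 70.3%). With kit 3 it was 55.3% in ApcMin replicate 2 (49.8% to 60.6%) and 39.4% in VApcMinL replicate 2 (37.2% to 41.6%). The intervals cover counting error only. ApcMin libraries averaged 45.6% ± 13.6 (SD, n = 2), and VApcMinL libraries averaged 52.8% ± 18.9 (SD, n = 2). Their gap of 7.11 points did not exceed the SD of either genotype. An exact permutation test, two-sided, gave p = 0.667, and 6 arrangements cannot give a p below 0.333. Within kit 2 VApcMinL was 30.1 points higher, and within kit 3 it was lower (-15.9 points). Lef1 was higher in the VApcMinL library of the kit 2 pair, for a cause that was not tested. Both the direction within kit 2 and the gap between genotypes thus hold only for the libraries as labelled. The limit of 10 UMIs was also read at unequal depth. Cells were also thinned to 1 depth, and the gate and limits were applied to the thinned counts. The shares were then 25.2, 48.4, 33.7 and 24.98%, and the differences were 23.2 points in kit 2 and -8.73 points in kit 3. Inside VApcMinL replicate 2, 43.9% of adenoma cells with Xist alone (39.4% to 48.4%) and 36.3% of those with Y-linked UMIs alone (33.5% to 39.2%) were gastric-type. Both values come from 1 library and were not tested.

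Whether the state change differed between genotypes was tested as an interaction. Of 11755 genes, 0 were called (0%) by edgeR, 124 had an unadjusted p under 0.05, and DESeq2 called 3, Spink4, Ccl6 and Npy, which are named after their values were seen. Spink4, a goblet cell peptide, measured 152, 142, 211 and 357 CPM in gastric-type and 422, 131, 1328 and 260.2 CPM in other cells. It was lower in the gastric-type cells of both ApcMin libraries and slightly higher in those of both VApcMinL libraries. Within gastric-type cells, 0 of 12319 genes (0%) were called between genotypes by edgeR with the kit as a block, a fit with 1 residual degree of freedom. There 61 genes had an unadjusted p under 0.05, and DESeq2 called 6. Besides the X-linked Xist and Tsix, these were S100g, also X-linked, and Zg16, Lipf and 2010109I03Rik, named after their values were seen. Lipf, at the gastric-type levels given above, was lower in both VApcMinL libraries (DESeq2 log2 -2.85, adjusted p = 7.19e-08). In other cells Lipf was lower in VApcMinL within kit 2 and higher within kit 3. Zg16, a goblet cell lectin, measured 27.4, 191, 104 and 456 CPM, higher in both VApcMinL libraries (DESeq2 log2 2.45, adjusted p = 1.26e-13). Other cells measured 34.2, 155, 74.3 and 535 CPM of Zg16, also higher in both. S100g was lower in the gastric-type cells of both VApcMinL libraries (DESeq2 log2 -1.32, adjusted p = 0.000184). Its other-cell levels, given above, were also lower in VApcMinL within each kit. Zg16 and S100g thus differed in both states, and genotype and sex cannot be told apart in these sums, which were not split by sex.

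The calls between states depended on the library block and on both kit pairs. Without the block 24 genes were called, and without ApcMin replicate 1 or ApcMin replicate 2 there were 97 and 182. Aqp5, Gkn1, Pgc, Spdef, Krt14 and Fscn1 kept direction and call in all 20 alternative settings in which they were refitted. Among the named genes above, the calls of Onecut2, Galnt7, Muc5ac and Il1rn held in 10 of 20, 10 of 20, 10 of 20 and 10 of 19, and those of Atp4a and Gpx5 in 11 of 20 and 11 of 20. Because depth differed between the states, cells were also thinned to 1 depth, which gave 374 calls, 190 of them shared with the 361. The labels do not say that replicate libraries came from separate animals, so p-values measure only the spread between these libraries.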

How the data were processed

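Small intestinal adenomas were profiled with 10x Genomics 3′ single-cell RNA sequencing. The authors deposited raw UMI counts per gene and barcode, for all barcodes. Per the labels and the study's methods, Cell Ranger 2.1.1 was run on mm10 (GRCm38) and Seurat 3.1.1 was used downstream, while the headers of the kit 3 matrices name Cell Ranger 3.1.0. The 27514 gene identifiers shared by the 4 matrices were used, and other genes held at most 0.568% of the UMIs of a library. Libraries held 44660305 and 49009488 UMIs (ApcMin and VApcMinL, kit 2) and 98714025 and 128247396 UMIs (kit 3). Intervals and floors cover counting error only.

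Counts were summed per library and state and compared by edgeR 4.0.16 in R 4.3.3 (quasi-likelihood F-test, TMM scaling, expression filter at a minimum count of 10, Benjamini-Hochberg adjustment, calls at 0.05). The 5 genes of the rule counted in library sizes and were not tested. Library was a block, and DESeq2 1.42.0 was an alternative. CPM are UMIs per 1000000 UMIs of a sum. Differences within a library used log2 CPM with a prior count of 2. Both states of a library share it, so the library pairs them, and deviations from state means correlated at 0.661, 0.545, 0.638 and 0.682 between the paired sums, across 11760 genes, which are not independent replicates. Doublets, found by Scrublet (scanpy 1.11.5), were kept, and removed in an alternative. Cell barcodes shared between libraries numbered 2 among called cells and 0 among adenoma cells. In simulated counts for the comparison of states, all genes had the same dispersion of 0.0205, so genes that vary more between libraries are not described. The test recovered 161 of 192 tested genes changed by 1 on the log2 scale (5 false calls, 11835 genes run). It recovered 194 of 194 changed by 2 (6 false calls, 11817 genes run), with 0 calls when no gene was changed.

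Members and lists were chosen with earlier results of these data known. Genes were named by a rule: the 5 rule genes; the 10 largest rises and 10 largest falls among calls with the same direction in 4 libraries and at least 20 CPM in the higher state; of each list the 2 largest called rises and falls; and 20 genes of stomach, intestinal, Wnt and stem cell identity in all cases. Other genes were named after their values were seen. Positions are from GENCODE vM21 and promoters from RefSeq, both on GRCm38. Alternatives changed the tool, filter, block, libraries, depth, limits, gate, doublets and cycling cells. Protein sequences were not used here, and 1 called gene is not reported here.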

Additional observations from a re-analysis of the deposited data

Results flagged for a closer look

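In 4 of 57 named genes, 1 library's difference between states lay far from the other 3, by the ratio of the gap to the range (Dixon). Chance alone marks about 1 in 20 genes. Pgc had log2 differences of 1.41, 3.41, 3.61 and 3.55 in the order used above, with the smallest in ApcMin replicate 1 (ratio 0.909). Dsc3 had -1.87, -3.44, -1.74 and -1.73, with the largest fall in VApcMinL replicate 1 (ratio 0.922). Gpx5 had -2.13, -2.52, -0.16 and -2.29, nearest to 0 in ApcMin replicate 2 (ratio 0.836). Hes1 had -0.48, -1.11, -0.44 and -0.42, with the largest fall in VApcMinL replicate 1 (ratio 0.913). That library has 37 other cells, and the part of this number in these differences was not tested.

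Outside the adenoma gate, 361 of 4751 called cells (7.60%) held at least 10 UMIs of Gkn3 and Muc6. The shares were 9.17, 8.44, 2.87 and 9.94% in the 4 libraries. These cells entered no comparison.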

How the results depend on the processing

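Of 361 genes called between states, DESeq2 called 354 among its 513. The count changed by over 1.5 times in 9 of 20 alternatives. It was 874 without the low-count filter, 24 with no replicate block (all 24 of them shared), 130 in the kit 2 pair and 67 in the kit 3 pair alone, 104 with Gkn3 alone, 1970 with Muc6 alone and 186 under the strict adenoma gate. Leaving out 1 library gave from 97 to 347 calls, the lowest without ApcMin replicate 1 and 182 without ApcMin replicate 2. Fewer libraries enter the last fits, and for the others the cause was not tested. With cells holding other lineage markers removed, an alternative chosen after the data were seen, 410 genes were called.

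Among 45 named called genes, 685 of 884 refitted values kept direction and call, 196 kept direction only, and 3 reversed: Atp4a (-0.50) and Muc5ac (-0.017) with Gkn3 alone, and Ang4 (1.27) without other lineages. Ang4 was itself among the markers that removed cells there. Lef1, not called in the main comparison, was called at 0.73 with Muc6 alone. Both states come from the same library, which pairs them, and with no replicate block 37 of these 45 genes lost their call.

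The interaction of state and genotype had 0 calls, 3 with DESeq2, 60 without the filter and from 1 to 40 when 1 library was left out, 40 of them without ApcMin replicate 1. The genotype comparison within gastric-type cells had 0 calls, also with no replicate block, 6 with DESeq2, 1 without the filter and from 0 to 4 when 1 library was left out. The difference in gastric-type share was 7.11 points and lay from 5.89 to 8.64 points under changed limits. Leaving out 1 library gave from -6.25 to 20.5 points, and it was -2.50 points without ApcMin replicate 1. Depth limits VApcMinL replicate 1 most, where 37 other cells held 579836 UMIs.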

Other observations

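Several transcription factor genes that no list held were called, and are named here after their values were seen. Hoxa5 (log2 1.65, edgeR adjusted p = 0.00705), Hoxa7 (1.13, adjusted p = 0.0303) and Hoxa9 (1.26, adjusted p = 0.00924), neighbors within the HoxA cluster on chromosome 6, were higher in gastric-type cells. Hoxb9 was lower (-2.51, adjusted p = 0.0146). The developmental factors T, or brachyury (1.29, adjusted p = 0.0179), Foxc1 (1.87, adjusted p = 0.0135) and Nkx6-2 (2.29, adjusted p = 0.0341) were called higher, Foxc1 at 8.46 CPM and Nkx6-2 at 4.67 CPM on average in gastric-type cells.

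Some pairs of neighboring genes were both called higher, described here after their values were seen. Cftr, the chloride channel gene, and Cttnbp2, 43.7 kb apart on chromosome 6, had log2 values of 2.39 and 1.99. Agr3 (1.74) lies 43.2 kb from Agr2, Wfdc17 (1.56) lies 2.75 kb from Wfdc18, and the proton channel genes Otop2 (1.15) and Otop3 (1.30) are 2.43 kb apart.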
